A study of Homo sapiens with 6 samples.

Results

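The constitutive proteasome genes were followed through a knockdown of ALKBH3 in 92.1 cells, an established human ocular melanoma line. They were taken as every protein-coding symbol from PSMA to PSMG followed by a number, leaving out the immunoproteasome subunits PSMB8, PSMB9 and PSMB10, whatever their expression values. The pattern took 44 of the 11387 genes with a listed transcript, and all 44 passed the filter on low values. Of these, 43 are proteasome subunits, activators, an inhibitor or assembly factors. The other is PSMC3IP, a meiotic recombination factor that matched by symbol and is no proteasome subunit. PSMA8 and PSMB11, tissue-restricted subunits, have no listed transcript. Total RNA was sequenced from 3 libraries labelled NC (the control, genotype wild type) and 3 libraries labelled shALKBH3, all grown in the same serum-containing medium. ALKBH3 is a demethylase of alkylated nucleic acids. The labels do not say whether NC cells carry a control hairpin, which hairpin targets ALKBH3, whether the knockdown line is 1 clone, or whether the libraries come from separate cultures. The p-values below therefore measure the spread between these libraries, which may be technical. In bulk RNA, fewer cells of a kind and less RNA per cell cannot be told apart.

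The proteasome is the main protease of the cytosol and nucleus. Its core is a barrel in which outer rings of alpha subunits (PSMA genes) gate the entrance and inner rings of beta subunits (PSMB genes) hold the cutting sites. A cap made of ATPases (PSMC genes) and non-ATPase subunits (PSMD genes) recognises ubiquitin chains, removes them and threads the unfolded protein into the core. Other activators (PSME genes) open the core without ubiquitin, and dedicated chaperones assemble the rings. When proteasome activity is short, the transcription factor NFE2L1 raises many of these genes together, while NFE2L2 does so under oxidative stress. Interferon signalling raises the immunoproteasome subunits and the activator genes PSME1 and PSME2.

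Expression is given as FPKM, fragment counts scaled to transcript length and library size, summed over a gene's listed transcripts. ALKBH3 itself measured 10.5, 10.6 and 9.19 FPKM in NC and 3.29, 3.601 and 4.24 FPKM in shALKBH3. It fell by 1.24 on the log2(FPKM + 1) scale (SE 0.12, limma adjusted p = 0.0079, and 0.063 when only its most abundant transcript was used). The listed values summed to between 340950 and 361268 FPKM in NC and to between 326875 and 333987 in shALKBH3. Pearson's r between libraries, across genes, lay between 0.939 and 0.970. Read depth is unknown, since the tables hold no counts. Of 10 melanocyte markers only GPR143, MITF and RAB38 have a listed transcript, with a summed level of 33.1 to 34.9 FPKM in NC and 32.2 to 39.0 in shALKBH3. Within that sum MITF was 7.90, 9.53 and 3.29 FPKM in NC and 11.1, 14.01 and 10.3 in shALKBH3 (log2 difference 0.78, limma adjusted p = 0.31), while RAB38 had a log2 difference of -0.34 (limma adjusted p = 0.40). MLANA, PMEL, TYR, TYRP1, DCT, SOX10 and S100B have none, so the labelled cell type could be checked against 3 markers only. Of 5 fibroblast markers COL1A1 and COL1A2 are listed (19.8 to 31.3 FPKM in NC and 20.4 to 25.2 in shALKBH3), and no lymphoid, myeloid, epithelial or endothelial marker is. COL1A2 measured 7.22 FPKM in NC replicate 1 and between 0.308 and 0.783 in the other libraries.

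No constitutive proteasome gene passed the test between shALKBH3 and NC. In a limma fit over 10475 genes, 184 genes (1.76%) passed an adjusted p of 0.05, and 0 of the 44 proteasome genes did. Leaving out NC replicate 1, 2 or 3, or shALKBH3 replicate 1, 2 or 3, left 66, 110, 84, 77, 62 and 48 genes past it, and still 0 of the 44. Adjusted p of the 44 genes ran from 0.14 (PSMB4) to 0.99 (PSMD14). At an unadjusted p under 0.05 in limma, 4 of 44 (9.09%) were lower in shALKBH3, against 8.15% of all genes, and 0 were higher, against 8.98%. The 4 were PSMB4, PSMD13, PSMD9 and PSMF1. In 5 genes (11.4%) all shALKBH3 libraries lay below all NC libraries, against 12.0% of all genes. In 2 genes, PSMD5 and PSME4 (4.55%), all lay above, against 12.9%. These shares were near or below the background.

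Most differences were small and below 0. The log2 difference was below 0 in 33 of 44 proteasome genes (75%), against 51.3% of all genes tested, and the median log2 difference was -0.13 against -0.01. With every library rescaled to the same sum, 23 of 44 were below 0 and the median was -0.03, against 0.07 for all genes. The share of all genes below 0 was not counted under that scaling, so 51.3% is no background for the 23. Without NC replicate 3 the median was -0.07. The summed level of the 44 genes was 2357, 2268 and 2524 FPKM in NC and 2277, 2183 and 2162 in shALKBH3. The shALKBH3 mean was 7.37% lower and the ranges overlapped, while the sum over all tested genes was 6.36% lower. As a share of all listed FPKM the 44 genes took 0.656, 0.665 and 0.699% in NC and 0.683, 0.668 and 0.647% in shALKBH3, again overlapping.

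**Figure D1:**
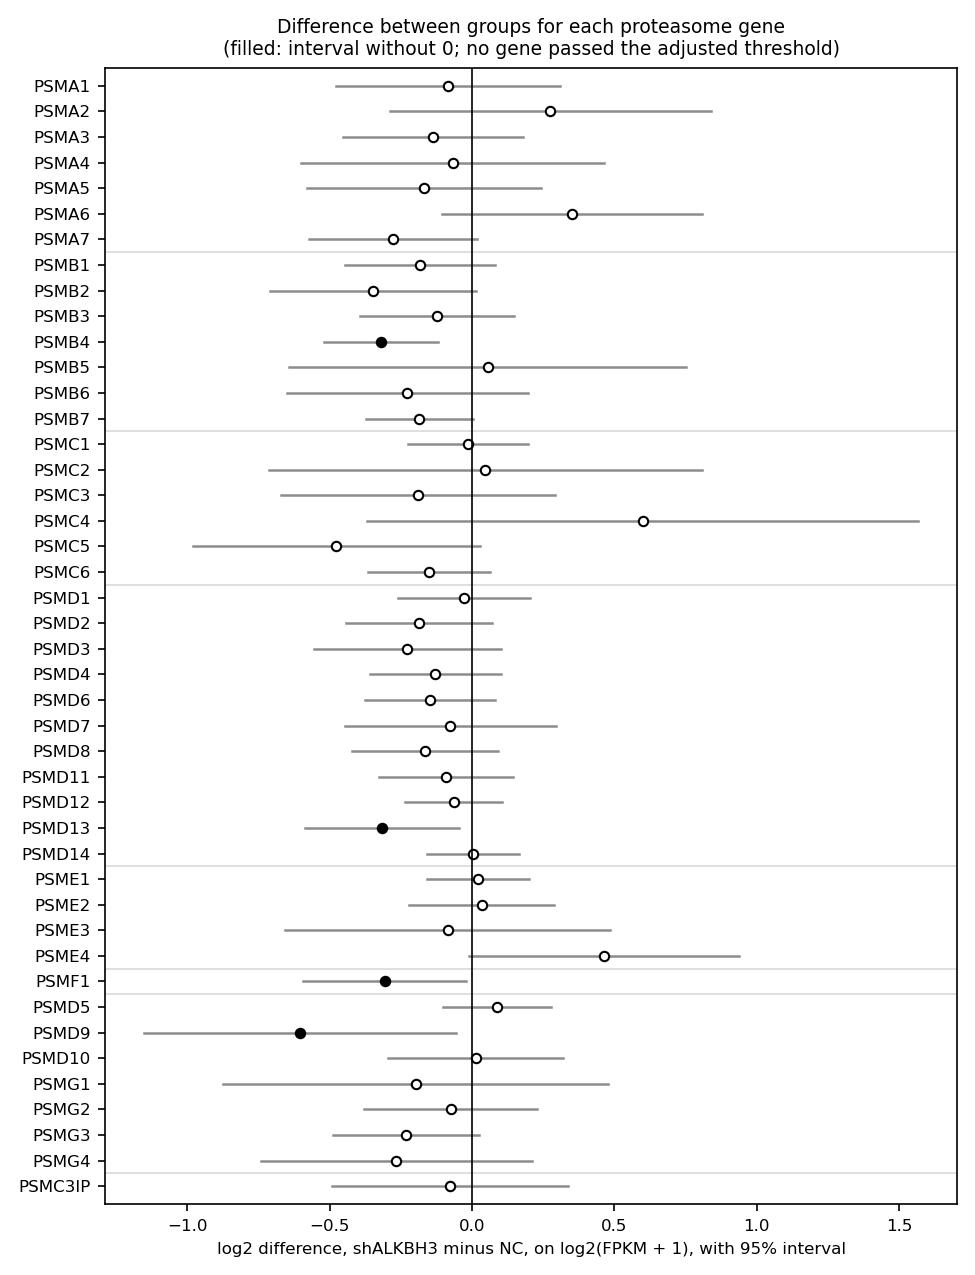
Log2 difference in log2(FPKM + 1), shALKBH3 minus NC, for each of the 44 genes with its 95% interval from limma, ordered by role. Most points lie a little to the left of 0, and 40 of the 44 intervals include 0; filled points mark the other 4.

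Within the spread of these libraries most intervals were narrow. The 95% interval of the gene sums lay within a 2-fold change for 42 of the 44 genes, PSMC4 and PSMD9 being the exceptions, and within a 1.5-fold change for 27. These intervals do not cover how fragments were assigned to transcripts. With the most abundant transcript alone, the log2 difference left the interval of the gene sum in 6 genes, PSMD2 (-0.72), PSMF1 (-0.65), PSMC3IP (-0.61), PSMA6 (-0.27), PSMD8 (0.12) and PSME3 (0.63). The median within-group SD of the 44 genes was 0.16 on the log2 scale, against 0.18 for all genes. PSMD14, the cap deubiquitinase, was the tightest with an SD of 0.04. It measured 65.4, 64.5 and 60.5 FPKM in NC and 63.9, 63.9 and 62.9 in shALKBH3, with a log2 difference of 0.00 (95% interval -0.16 to 0.16).

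Levels differed far more between subunits than between conditions. Mean FPKM over the 6 libraries, which is per length, ran from 8.30 for PSME4 to 170.8 for PSMB1, a 20.6-fold range with a median of 41.7. Subunits that sit side by side at equal number in the particle still differed in mRNA. The highest and lowest alpha subunits differed 8.73-fold, the beta subunits 5.30-fold and the cap ATPases 3.09-fold. The alpha range rests on PSMA5, at 13.3 FPKM, whose most abundant transcript has 3729 bases. The next lowest, PSMA2, averaged 47.0 FPKM in NC and 59.1 in shALKBH3. The ATPase range rests on PSMC4, at 14.55 FPKM. PSMC6, next above it, averaged 31.5 FPKM in NC and 28.3 in shALKBH3. The assembly factors were low as a group, at 10.5 to 31.8 FPKM.

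**Figure D2:**
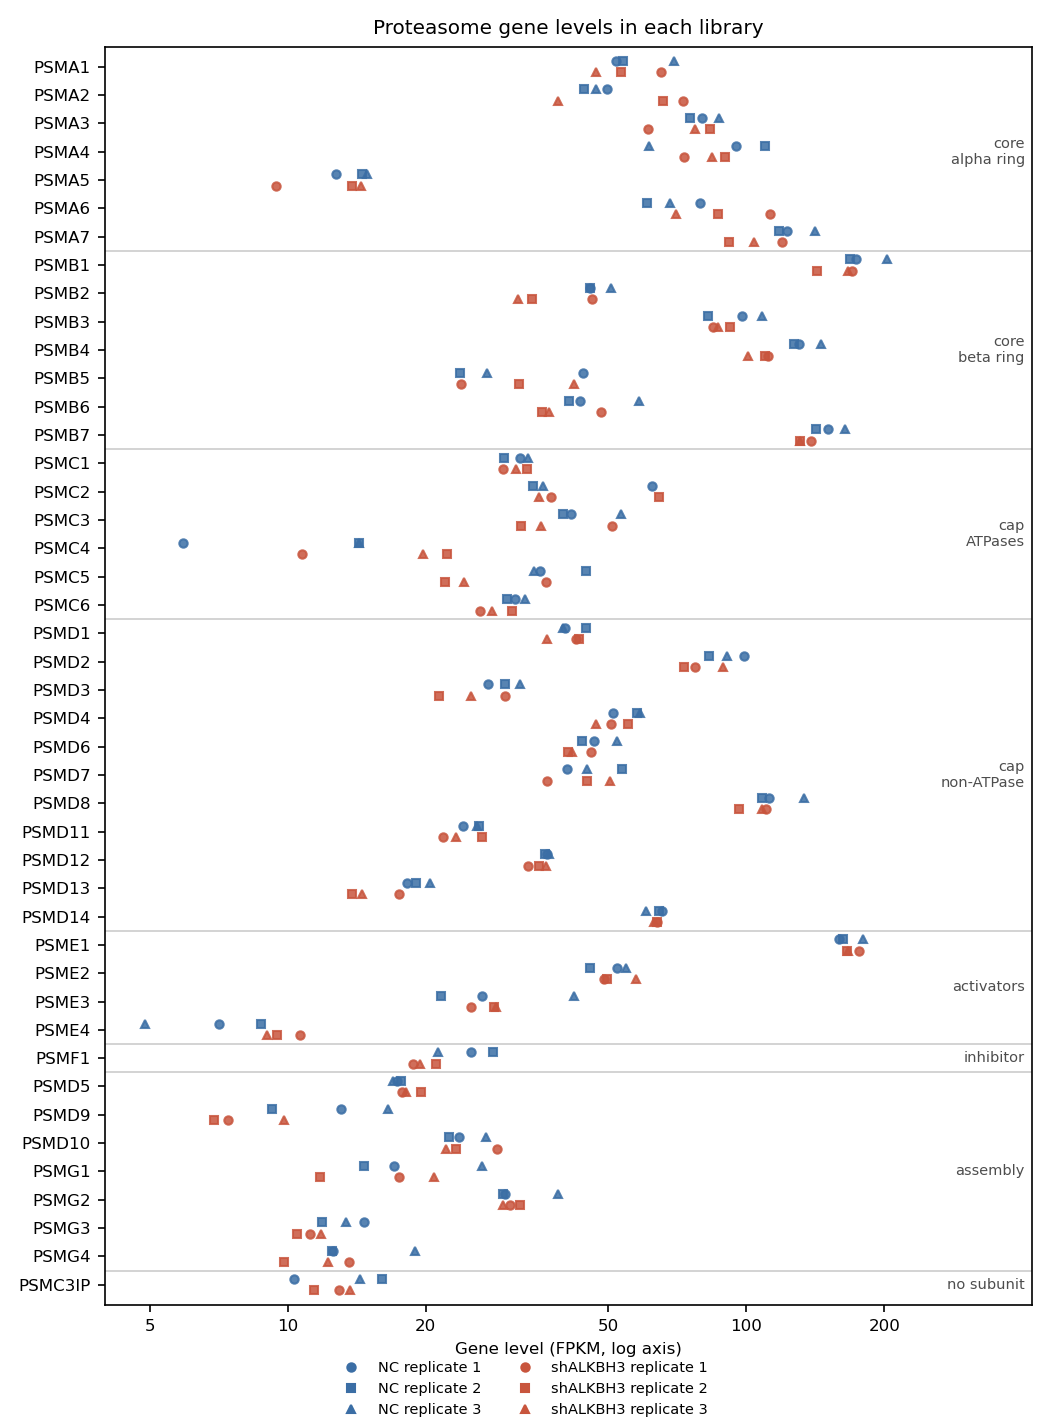
FPKM of each of the 44 genes in each library on a log axis, ordered by role, with NC and shALKBH3 libraries as separate symbols. The spread between genes, from 8.30 to 170.8 FPKM in the mean, exceeds the distance between the 2 conditions for any gene.

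Promoter sequence is shown for genes described in full below with 1 start in the RefSeq table (GRCh38.p14) and a match to either of 2 motifs. These motifs are cores of elements tied to the oxidative stress and interferon responses named in the background. The motifs, searched on both strands of 300-base windows (250 bases before to 50 after the start), were TGACNNNGC, the core of the antioxidant response element, and the core of the interferon-stimulated response element, GAAA followed after any 2 bases by GAAA. Of the 44 genes 38 are in the table, with 47 windows. PSMA7, PSMB1, PSMB6, PSMB7, PSMD4 and PSMG3 were not in it. TGACNNNGC was found in 14 of the 47 windows (29.8%), against 13.3% of all 35116 windows. The interferon core was found in 5 (10.6%), against 3.57%; the genes were PSMA4, PSMB4, PSME1, PSME2 and PSMG4. Each sequence below runs from 150 bases before to 30 after the start, on the strand of the gene, with the matches in capitals. No matches of the 2 motifs overlap.
PSMB4, chr1:151399423-151399602, plus strand: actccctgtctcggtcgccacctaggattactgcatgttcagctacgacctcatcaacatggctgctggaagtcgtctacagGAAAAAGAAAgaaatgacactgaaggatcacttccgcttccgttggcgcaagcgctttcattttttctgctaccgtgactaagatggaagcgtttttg
PSMD9, chr12:121888640-121888819, plus strand: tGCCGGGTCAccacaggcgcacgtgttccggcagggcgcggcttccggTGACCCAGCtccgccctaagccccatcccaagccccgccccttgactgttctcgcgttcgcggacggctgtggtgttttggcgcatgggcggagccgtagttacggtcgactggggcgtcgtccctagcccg
PSME1, chr14:24136044-24136223, plus strand: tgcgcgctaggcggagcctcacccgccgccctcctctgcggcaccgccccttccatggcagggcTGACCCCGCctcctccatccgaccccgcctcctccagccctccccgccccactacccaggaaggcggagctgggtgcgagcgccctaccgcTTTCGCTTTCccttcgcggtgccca
PSME2, chr14:24146581-24146760, minus strand: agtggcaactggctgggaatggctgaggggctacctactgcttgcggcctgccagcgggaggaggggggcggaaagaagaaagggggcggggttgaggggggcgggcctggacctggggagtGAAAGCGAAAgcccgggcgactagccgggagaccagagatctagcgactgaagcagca
PSME4, chr2:53970964-53971143, minus strand: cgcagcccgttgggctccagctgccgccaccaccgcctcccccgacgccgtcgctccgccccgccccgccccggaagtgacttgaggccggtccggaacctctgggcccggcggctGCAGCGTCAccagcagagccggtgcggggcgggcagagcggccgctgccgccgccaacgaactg
The PSMB4 match, GAAAAAGAAA, begins 68 bases before the start. PSMD9 holds TGACNNNGC at 149 and 102 bases before the start, the first of them on the opposite strand, and PSME4 holds it at 34 bases before, also on the opposite strand. PSME1 and PSME2, neighbours on chromosome 14, both hold GAAAGCGAAA close to the start, 5 bases after it on the opposite strand in PSME1 and 28 bases before it in PSME2. PSME1 also holds TGACCCCGC at 86 bases before the start, and PSME2 holds that motif at 175 bases before, outside the printed stretch. Of the genes with a printed interferon core, PSMB4 had a log2 difference of -0.32, PSME1 of 0.02 and PSME2 of 0.03. Of those with a printed TGACNNNGC match, PSMD9 had -0.61, PSME1 0.02 and PSME4 0.46. A match describes letters only; binding was not measured.

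The beta ring had a lower summed FPKM in shALKBH3, but not a separate share of each library. Its 7 genes summed to 686, 631 and 757 FPKM in NC and to 623, 578 and 596 in shALKBH3, so that all shALKBH3 libraries lay below all NC libraries. The means were 691 ± 63.4 and 599 ± 22.9 FPKM (SD, n = 3 each), 13.3% lower in shALKBH3, against 6.36% for the sum over all tested genes. As a share of all listed FPKM the ring took 0.191, 0.185 and 0.210% in NC and 0.187, 0.177 and 0.179% in shALKBH3, and these shares overlap. The log2 difference was below 0 in 6 of 7 genes with a median of -0.19, and the median was -0.10 without NC replicate 3 and -0.09 after a correction for transcript length and GC content. None of the 7 passed the adjusted test in limma, and PSMB4 alone had an unadjusted p under 0.05.

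PSMB4, a beta subunit without a cutting site whose promoter is printed above, had the smallest p of the 44 genes. It measured 131, 127 and 146 FPKM in NC and 111, 110 and 101 in shALKBH3. The groups did not overlap and the mean was 20.1% lower. The log2 difference was -0.32 (SE 0.08, 95% interval -0.52 to -0.12, limma adjusted p = 0.14). Over 19 alternative settings the log2 difference stayed between -0.36 and -0.21 and the adjusted p between 0.054 and 0.38, and the unadjusted p was under 0.05 in each.

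The catalytic beta subunits are PSMB5 (chymotrypsin-like), PSMB6 (caspase-like) and PSMB7 (trypsin-like). PSMB7 measured 151, 142 and 164 FPKM in NC and 139, 131 and 131 in shALKBH3, without overlap (log2 difference -0.19, 95% interval -0.37 to 0.00, limma adjusted p = 0.30). PSMB6 measured 43.4, 41.0 and 58.3 FPKM in NC and 48.3, 35.8 and 37.1 in shALKBH3, which overlap (log2 difference -0.23, limma adjusted p = 0.53). With length and GC content corrected, the log2 difference was -0.09 for PSMB7 and -0.07 for PSMB6. PSMB5 measured 44.2, 23.8 and 27.3 FPKM in NC and 23.9, 32.0 and 42.2 in shALKBH3. The PSMB5 libraries of both groups covered the same range (log2 difference 0.05, 95% interval -0.64 to 0.75), and a difference of the size measured for PSMB4 lies inside that interval. Of the remaining beta subunits, which form the ring without cutting, PSMB1 (log2 difference -0.18), PSMB2 (-0.35) and PSMB3 (-0.12) all overlapped between groups.

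Each catalytic subunit has an immunoproteasome counterpart that can take its place. PSMB9, the counterpart of PSMB6, measured 17.8, 18.6 and 21.3 FPKM in NC and 37.0, 27.7 and 32.0 in shALKBH3 (log2 difference 0.71, 95% interval 0.39 to 1.03, limma adjusted p = 0.065). The ratio of PSMB9 to PSMB6 was 0.409 ± 0.0446 in NC and 0.80 ± 0.054 in shALKBH3 (SD, n = 3 each), without overlap. PSMB8 to PSMB5 was 0.768, 1.57 and 1.65 in NC and 2.36, 1.34 and 1.17 in shALKBH3. PSMB10 to PSMB7 was 0.0320 ± 0.00609 and 0.0317 ± 0.0102. Both of these ratios overlapped. PSMB8 itself measured 33.9, 37.3 and 45.03 FPKM in NC and 56.5, 42.8 and 49.2 in shALKBH3. Only shALKBH3 replicate 2 fell within the NC range (log2 difference 0.35, 95% interval -0.01 to 0.70, limma adjusted p = 0.30). PSMB10 overlapped, with a log2 difference of -0.18 (limma adjusted p = 0.72).

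**Figure D3:**
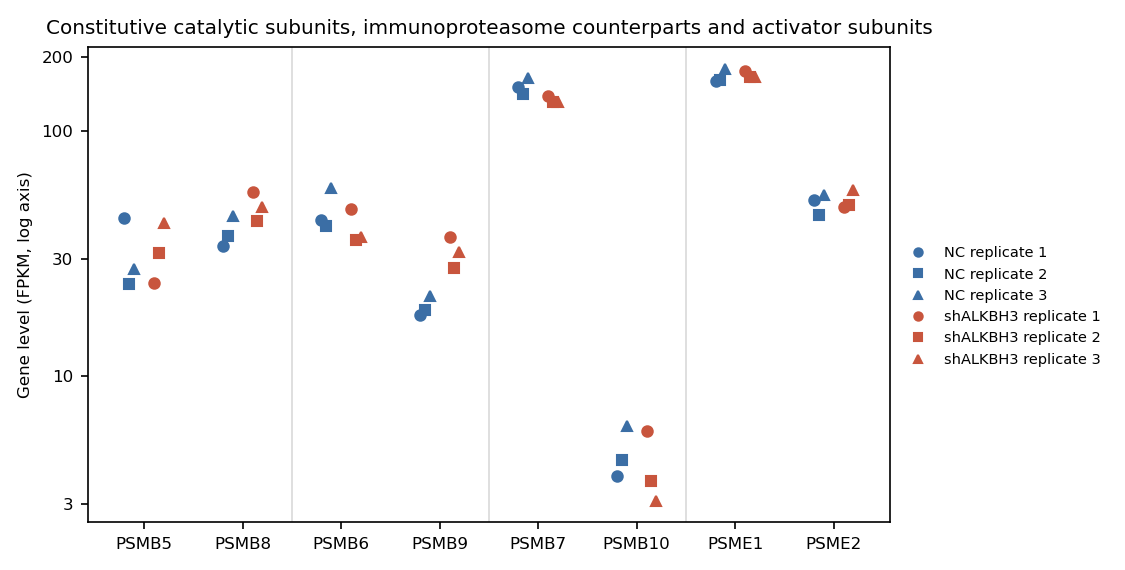
FPKM per library of the catalytic subunits, their immunoproteasome counterparts and the activator subunits, NC beside shALKBH3. PSMB9 is the counterpart whose shALKBH3 libraries (27.7 to 37.0 FPKM) all lie above NC (17.8 to 21.3), while PSMB5, PSMB6, PSMB8 and PSMB10 overlap.

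The alpha ring, which forms the gate, summed to 492, 476 and 489 FPKM in NC and to 514, 485 and 436 in shALKBH3. These ranges overlap and the means differ by 1.59%. The log2 difference was below 0 in 5 of 7 genes (median -0.08). The median was 0.01 without shALKBH3 replicate 1, so its sign was not stable. With libraries rescaled to equal sums it was also 0.01, against 0.07 for all genes tested, which that scaling moved up as well. PSMA7, the most abundant alpha subunit, measured 123, 118 and 141 FPKM in NC and 119, 91.8 and 104 in shALKBH3 (log2 difference -0.28, 95% interval -0.57 to 0.02, limma adjusted p = 0.31), and -0.15 with length and GC content corrected. PSMA6 went the other way, at 79.5, 60.7 and 68.0 FPKM in NC and 113, 86.9 and 70.3 in shALKBH3 (log2 difference 0.35, 95% interval -0.11 to 0.81, limma adjusted p = 0.39). In PSMA6 shALKBH3 replicates 1 and 2 lay above every NC library and replicate 3 lay among them. PSMA2 also had a higher mean (47.0 ± 2.74 and 59.1 ± 17.9 FPKM), with shALKBH3 replicate 3 below every NC library. PSMA1 (log2 difference -0.08), PSMA3 (-0.14), PSMA4 (-0.07) and PSMA5 (-0.17) overlapped.

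The cap ATPases, the unfolding motor, summed to 209, 193 and 205 FPKM in NC and to 191, 205 and 174 in shALKBH3. The groups overlap and the mean is 5.804% lower. PSMC5 measured 35.5, 44.7 and 34.4 FPKM in NC and 36.6, 22.1 and 24.2 in shALKBH3. Only shALKBH3 replicates 2 and 3 lay below NC (log2 difference -0.48, 95% interval -0.98 to 0.03, limma adjusted p = 0.31). PSMC6 was tighter, at 31.3, 30.2 and 32.9 FPKM in NC and 26.2, 30.8 and 27.9 in shALKBH3 (log2 difference -0.15, adjusted p = 0.43 in limma). PSMC4 had the widest within-group SD of the 44 genes, 0.60 on the log2 scale. It measured 5.93, 14.3 and 14.3 FPKM in NC and 10.7, 22.2 and 19.8 in shALKBH3, and replicate 1 was the low library in each group (log2 difference 0.60, 95% interval -0.37 to 1.57). Its log2 difference was 0.22 without NC replicate 1 and 1.07 with sample weights. PSMC1 (log2 difference -0.01), PSMC2 (0.05) and PSMC3 (-0.19) overlapped.

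Nearly all non-ATPase cap subunits, some of which recognise or remove ubiquitin chains, had a small difference below 0. The log2 difference was below 0 in 10 of 11 genes, from -0.32 to 0.00 with a median of -0.13. With libraries rescaled to equal sums the median was -0.04, against 0.07 for all genes tested. With length and GC content corrected it was -0.10, against -0.02 for all genes tested. Their sum was 562, 568 and 597 FPKM in NC and 530, 515 and 536 in shALKBH3, without overlap. As a share of all listed FPKM they took 0.156, 0.1665 and 0.165% in NC and 0.159, 0.158 and 0.160% in shALKBH3, and NC replicate 1 then lay below every shALKBH3 library. The means were 575 ± 18.8 and 527 ± 10.6 FPKM (SD, n = 3 each), 8.42% lower in shALKBH3, against 6.36% for the sum over all tested genes. PSMD13, a scaffold subunit of the lid, measured 18.2, 19.0 and 20.5 FPKM in NC and 17.5, 13.8 and 14.5 in shALKBH3, without overlap. Its log2 difference was -0.32 (95% interval -0.59 to -0.05, limma adjusted p = 0.24), and -0.21 for its most abundant transcript. PSMD2, a base subunit that binds ubiquitin-like domains, measured 99.0, 83.2 and 90.9 FPKM in NC and 77.4, 73.3 and 89.0 in shALKBH3. The third shALKBH3 library fell within the NC range (log2 difference -0.19, limma adjusted p = 0.41). PSMD4, a ubiquitin receptor, had means of 55.9 ± 4.15 and 51.0 ± 4.06 FPKM. The other 7 genes beside PSMD14 had log2 differences between -0.23 (PSMD3) and -0.03 (PSMD1), and in none did the groups separate.

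**Figure D4:**
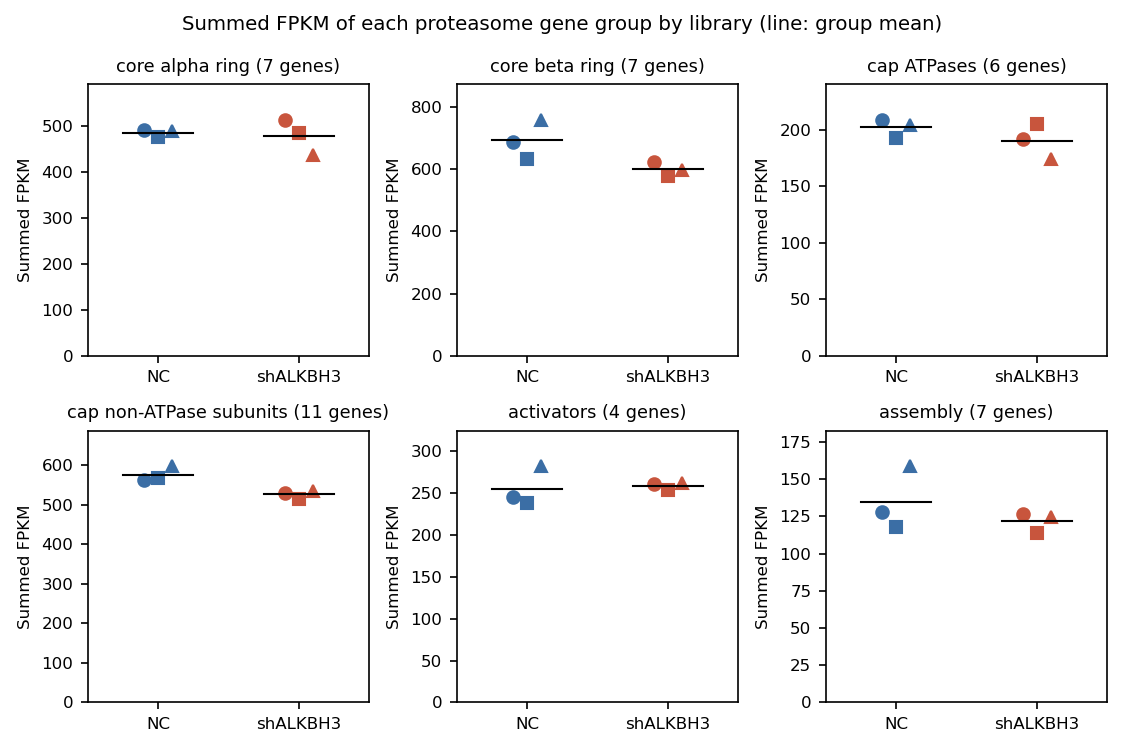
Summed FPKM of each role group in each library; circle, square and triangle are replicates 1, 2 and 3, blue is NC and red is shALKBH3. The beta ring and the non-ATPase cap subunits are the groups whose red points (578 to 623 and 515 to 536 FPKM) all lie below the blue ones (631 to 757 and 562 to 597); as shares of each library's listed FPKM, not plotted, the groups overlap in both.

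Of the alternative activators 3 of 4 had a log2 difference above 0, over a range from -0.08 to 0.46, and none passed the test. PSME1 and PSME2, which form the cytosolic interferon-inducible activator ring, overlapped between groups, with narrow intervals around 0. PSME1 measured 159, 162 and 180 FPKM in NC and 176, 166 and 166 in shALKBH3 (log2 difference 0.02, 95% interval -0.16 to 0.20). PSME2 measured 52.3, 45.6 and 54.8 FPKM in NC and 48.9, 49.8 and 57.6 in shALKBH3 (log2 difference 0.03, 95% interval -0.22 to 0.29). With length and GC content corrected, the log2 difference was 0.14 for PSME1 and 0.18 for PSME2 (limma adjusted p = 0.27 and 0.42). The intervals above, without that correction, leave out an increase of the size measured for PSMB9. A test of that difference between genes was not run. PSME3, which forms the nuclear ring, measured 26.6, 21.6 and 42.1 FPKM in NC and 25.1, 28.2 and 28.5 in shALKBH3. NC replicate 3 stood above the other 5 libraries (log2 difference -0.08, 95% interval -0.66 to 0.49).

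PSME4, a large nuclear activator, was the least abundant of the 44 genes. It measured 7.08, 8.75 and 4.89 FPKM in NC and 10.6, 9.46 and 9.003 in shALKBH3, without overlap. The log2 difference was 0.46 (95% interval -0.01 to 0.94, limma adjusted p = 0.30), and 0.27 without NC replicate 3. PSMF1, an inhibitor of the core in biochemical assays, measured 25.1, 28.0 and 21.3 FPKM in NC and 18.8, 21.0 and 19.5 in shALKBH3. The groups barely separated at NC replicate 3 (log2 difference -0.31, 95% interval -0.59 to -0.02, limma adjusted p = 0.27).

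The assembly factors summed to 128, 118 and 159 FPKM in NC and to 127, 114 and 124.6 in shALKBH3. NC replicate 3 was the high library, and the groups overlap. The median log2 difference over these 7 genes was -0.20, and 0.04 without NC replicate 3. PSMD9, a chaperone of the cap ATPases, had the lowest log2 difference of the 44 genes. It measured 13.0, 9.25 and 16.6 FPKM in NC and 7.41, 6.91 and 9.81 in shALKBH3 (log2 difference -0.61, 95% interval -1.15 to -0.06, limma adjusted p = 0.26), and -0.40 for its most abundant transcript. The highest shALKBH3 library lay above the lowest NC library. PSMG3, a chaperone of the alpha ring, measured 14.7, 11.87 and 13.4 FPKM in NC and 11.2, 10.5 and 11.82 in shALKBH3, and the groups barely separated. Its log2 difference was -0.23 (limma adjusted p = 0.33), and -0.03 once length and GC content were corrected for. PSMD5, another chaperone of the cap ATPases, measured 17.3, 17.65 and 17.0 FPKM in NC and 17.73, 19.5 and 18.1 in shALKBH3, and the groups barely separated (log2 difference 0.09). PSMD10 (log2 difference 0.01), PSMG1 (-0.20), PSMG2 (-0.07) and PSMG4 (-0.27) overlapped. PSMC3IP, the symbol match that is not a proteasome gene, measured 10.3, 16.1 and 14.4 FPKM in NC and 12.9, 11.4 and 13.7 in shALKBH3.

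The sums hide how the authors' processing split fragments over the transcripts of a gene. The 44 genes have 148 listed transcripts, all protein-coding, from 1 in 6 of the genes to 11 in PSMA4. Of the 119 tested, 0 passed an adjusted p of 0.05, against 0.472% of 19698 transcripts. At an unadjusted p under 0.05 in limma, 5 (3 lower and 2 higher) were counted, against 9.74% of all transcripts. The lower ones belong to PSMB4, PSMA7 and PSMD8 and the higher ones to PSMA6 and PSME2. Among 36 genes with 2 or more tested transcripts, 21 had transcripts with differences of both signs. These were PSMA1, PSMA4, PSMA5, PSMA6, PSMB5, PSMC1, PSMC2, PSMC3, PSMC3IP, PSMC5, PSMD1, PSMD2, PSMD8, PSMD10, PSMD14, PSME1, PSME2, PSME3, PSMF1, PSMG1 and PSMG2.

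PSMA6 shows such a split. Its most abundant transcript, ENST00000261479, measured 63.2, 44.2 and 58.1 FPKM in NC and 56.1, 34.7 and 47.4 in shALKBH3. ENST00000553809 measured 7.79, 11.8 and 4.04 FPKM in NC and 46.8, 45.5 and 14.1 in shALKBH3 (log2 difference 1.96, limma adjusted p = 0.38). The higher PSMA6 sum thus rests on the minor transcript, and the most abundant one had a log2 difference of -0.27. In PSMC2, ENST00000640277 measured 35.8 FPKM in NC replicate 1 and 34.6 in shALKBH3 replicate 2 but between 0.924 and 1.88 in the other 4 libraries. That transcript separates libraries and not conditions. In PSMD2, ENST00000310118 measured 35.8, 79.7 and 56.8 FPKM in NC and 48.2, 35.4 and 20.2 in shALKBH3, while ENST00000435761 measured 54.0, 2.35 and 22.5 in NC and 18.7, 27.6 and 62.9 in shALKBH3. The PSMD2 sum varied far less than either transcript. In PSME3, ENST00000293362 measured 29.9 FPKM in NC replicate 3 and at most 0.965 in the other NC libraries, and is listed at 0 in all shALKBH3 libraries.

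**Figure D5:**
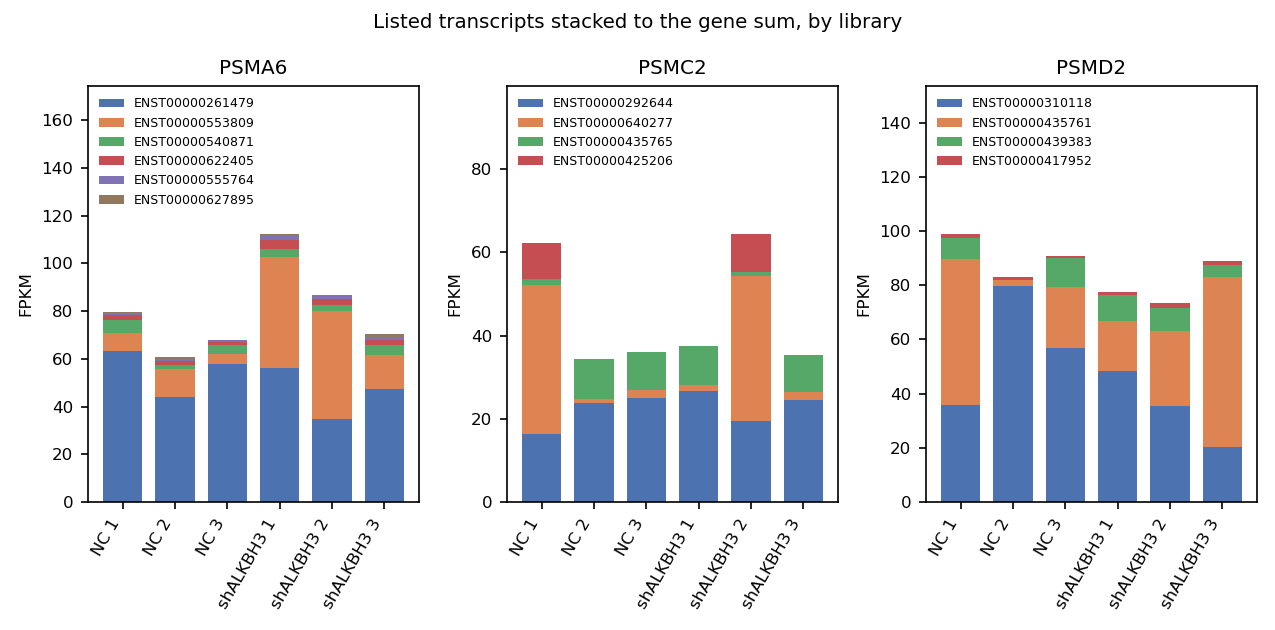
FPKM of the listed transcripts of PSMA6, PSMC2 and PSMD2 in each library. ENST00000553809 of PSMA6 is higher in all shALKBH3 libraries (14.1 to 46.8 FPKM, against 4.04 to 11.8 in NC), while the transcripts of PSMC2 and PSMD2 trade places between libraries of the same group.

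Other genes of the ubiquitin-proteasome pathway gave the same count of 0. All 39 of a list of ubiquitin genes, ubiquitin shuttles, proteasome-associated enzymes and regulators were tested, and 0 passed in either direction. Before adjustment, 4 of them were higher and 4 lower with p under 0.05 in limma, which is 10.3% each way against 8.98% and 8.15% of all genes and so near the background. A log2 difference below 0 was found in 27 of 39 (69.2%), against 51.3% of all genes, with a median of -0.07. NFE2L2, the oxidative stress regulator, had the smallest p. It measured 26.8, 39.8 and 44.3 FPKM in NC and 12.2, 12.7 and 21.4 in shALKBH3, without overlap and with a mean 58.2% lower (log2 difference -1.22, 95% interval -1.88 to -0.56, limma adjusted p = 0.10). The NFE2L2 log2 difference was -3.15 for its most abundant transcript (limma adjusted p = 0.30) and -0.82 with sample weights (limma adjusted p = 0.14). NFE2L1, the regulator of proteasome genes, lay on the other side of 0. It measured 32.8, 33.3 and 34.1 FPKM in NC and 41.4, 56.4 and 43.5 in shALKBH3 (log2 difference 0.47, SE 0.13, limma adjusted p = 0.15, and 0.86 when only its most abundant transcript was used).

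UBE3A, a ubiquitin ligase that binds the proteasome, measured 17.0, 23.7 and 16.0 FPKM in NC and 25.9, 33.8 and 32.3 in shALKBH3, all above NC. Its log2 difference was 0.68 (limma adjusted p = 0.15), but -0.12 for its most abundant transcript. ZFAND5, a zinc finger protein that stimulates the proteasome, measured 11.1, 32.7 and 13.7 FPKM in NC and 39.3, 80.3 and 43.7 in shALKBH3. All shALKBH3 libraries were above NC, and replicate 2 was the highest in both groups (log2 difference 1.54, 95% interval 0.45 to 2.62, limma adjusted p = 0.18). POMP, the maturation factor of the core, measured 99.9, 87.0 and 107 FPKM in NC and 97.9, 85.01 and 89.6 in shALKBH3, which overlap.

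Transcript length moved with the difference across the whole table. Over 10475 genes, Spearman's rho of the log2 difference was 0.34 with the length of the most abundant transcript and -0.31 with its GC content, as a description over genes, which are not independent. Proteasome mRNAs are short, with a median of 1521.5 bases against 2969 for all genes. Among transcripts under 1500 bases, a length chosen after the values were seen, the median log2 difference was -0.13 for 21 proteasome genes and -0.16 for 1826 genes in all, and 71.4% and 73.2% were below 0. Among longer ones it was -0.09 for 23 proteasome genes (78.3% below 0) and 0.02 for 8649 genes (46.7% below 0). In 25.6% of all genes (2680 of 10475) NC replicate 3 was the highest of the 6 libraries. For the 44 proteasome genes the share was larger, with NC replicate 3 highest in 25. For each library, the deviation of a gene's log2 value from its mean over the 6 libraries was correlated with length. NC replicate 3 had the lowest rho, at -0.40, and shALKBH3 replicate 2 the highest, at 0.31. With a correction for length and GC content the median log2 difference of the 44 genes was -0.071 in place of -0.13, against -0.02 for all genes, and 31 were below 0. Without NC replicate 3 it was -0.074, against -0.01 for all genes, again with 31 below 0. The share of all genes below 0 was not counted in either. Both alternatives left a smaller difference of the same sign.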

How the data were processed

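RNA from 3 NC and 3 shALKBH3 samples was made into libraries with dUTP second-strand synthesis, per the labels' protocols. The authors deposited 1 table of FPKM values per sample, by transcript; the tool that computed them is not given in the sources used here. The submitters' processing notes name hg19, HTSeq 0.6.0 and DESeq2, without their roles. The 6 tables list 28900 transcripts, of which 28796 (99.6%) matched GENCODE release 29 by identifier, giving 11387 genes. GENCODE 29 is on GRCh38, so only names, lengths and GC content were taken from it. How reads from near-identical copies were divided is not known.

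FPKM were summed per gene. Genes whose mean over the libraries reached 1 FPKM (10475) were tested as log2(FPKM + 1), which understates changes of low genes, with limma 3.58.1 in R 4.3.3 (variance trend, two-sided, Benjamini-Hochberg over all genes). Intervals are limma's 95% intervals. Python 3.11.15 was used for sums. The fit was tested on simulated data. Whole reads could not be recovered from the values. The alternatives were other pseudocounts, filters, scalings, sample weights, the most abundant transcript, length and GC correction, a replicate block, and leaving out each library.

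Members and lists were chosen with earlier results of these data known. Values are given in full for the 2 members with the smallest p in each role group, PSMB5, PSMB6, PSMB7, PSME1 and PSME2, and, of the pathway list, the 4 smallest p and NFE2L1. Values of PSMD14, PSMC4, PSMD5, PSMA2, PSMD4 and POMP were added after they were seen.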

Additional observations from a re-analysis of the deposited data

How the results depend on the processing

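The count of proteasome genes past an adjusted p of 0.05 in limma was 0 in each of the 19 alternatives run, and between 2 and 11 had an unadjusted p under 0.05. The number with a log2 difference below 0 was 33 and ranged from 23 (libraries rescaled to equal sums) to 34. The share of all genes below 0 was not counted in the alternatives. Differences whose interval includes 0 have no direction to lose; their sign changed in 0 to 10 of the 44 genes per alternative. Over all genes, 134 higher and 50 lower became 320 and 160 with sample weights, 80 and 25 with the most abundant transcript, and 177 and 81 with the length and GC correction. Without a variance trend 27 were lower, and with libraries rescaled to equal sums the split was 151 higher and 24 lower. Leaving out 1 library gave 39 to 88 higher and 9 to 22 lower genes; fewer libraries were then fitted. Equal sums moved the median log2 difference of all genes from -0.01 to 0.071, of the non-ATPase cap subunits from -0.13 to -0.036 and of the alpha ring from -0.08 to 0.0084. The activator median was 0.03, and 0.16 with the length and GC correction, 0.24 with the most abundant transcript, and -0.020 to 0.13 on leaving out 1 library. On leaving out 1 library the alpha ring median ranged from -0.14 to 0.0092 and that of the assembly factors from -0.31 to 0.04. UBE3A reversed to -0.12 with the most abundant transcript and passed with sample weights (limma adjusted p = 0.042). Where no value is given for it, the cause of a change was not tested.

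Over all genes, same-numbered NC and shALKBH3 libraries did not deviate together (correlations of -0.088, 0.075 and -0.012). The labels do not say whether they were prepared as pairs, and these correlations cannot decide it. With the replicate block 17 genes were higher and 3 lower over all genes, and with the block and the length and GC correction together 22 and 3, with an activator median of 0.16; the ALKBH3 adjusted p in limma was then 0.098 and 0.13. No proteasome gene passed under either, and the smallest limma adjusted p was 0.2 and 0.085, both for PSMC4. Depth is unknown, so counting error could not be separated from other spread.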
